A study of Mus musculus with 6 samples.

Results

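A set of 10 genes of prostaglandin and leukotriene synthesis were followed in cultured mouse adipose-derived stromal cells (ADSCs), fibroblast-like cells isolated from fat. The members were chosen by symbol, 10 of the 22186 genes in the deposited table, and were proposed with earlier results of the same comparison in view, so their own differences between groups are given as a description and no p-value of theirs is read as support. The cells were primary ADSCs of wild-type genotype. The control group (n = 3 libraries) was kept without other cells, and the Treg co-culture group (n = 3) was taken after 48 h with regulatory T cells, T cells that hold immune responses in check. The sources used here give neither the strain and age of the mice nor the culture time of the controls. They also do not give the way in which the T cells were kept apart or removed. No library came from a co-culture with another cell type, so effects of Treg and of co-culture in general cannot be told apart. The labels do not tie the replicates to separate mice or cultures, and every p-value measures only the spread between these libraries.

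Prostaglandins and leukotrienes are short-lived lipid signals made from arachidonic acid. Cytosolic phospholipase frees arachidonate from membranes, and the pathway then divides. In the cyclooxygenase arm, Ptgs1 and Ptgs2 make a common intermediate that terminal synthases turn into prostaglandin E (Ptges), prostacyclin (Ptgis) or prostaglandin D (Ptgds), and Hpgd inactivates the products. In the lipoxygenase arm, Alox5 with its partner Alox5ap makes leukotriene A, which Ltc4s joins to glutathione. Stromal cells are best known as prostaglandin producers that act on nearby immune cells, whereas the lipoxygenase arm is best known in leukocytes.

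Promoter windows from RefSeq (build GRCm38.p6; the submitters' processing notes name GRCm38, mm10 and GRCm39 with no role) matched 8 of the 10 genes, all but Ptgis and Alox5ap. Windows are shown for the member of each arm with the largest difference between groups, Ptgs2 and Alox5, and for Ptges, a synthase of the cyclooxygenase arm whose level lay lower after co-culture. Each line runs 5′ to 3′ over the 120 bases before and the 30 bases after the annotated start, at chr1:150099911-150100060 (plus strand) for Ptgs2, chr6:116461149-116461298 (minus strand) for Alox5 and chr2:30903268-30903417 (minus strand) for Ptges. Capitals mark TGACG (the core of the cyclic AMP response element) and CACGTG (an E box) in Ptgs2, and GGGCGG (a GC box) in Alox5 and Ptges, searched on both strands.
Ptgs2: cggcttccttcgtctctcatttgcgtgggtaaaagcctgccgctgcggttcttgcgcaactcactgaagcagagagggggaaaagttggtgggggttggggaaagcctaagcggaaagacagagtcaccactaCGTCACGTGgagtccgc
Alox5: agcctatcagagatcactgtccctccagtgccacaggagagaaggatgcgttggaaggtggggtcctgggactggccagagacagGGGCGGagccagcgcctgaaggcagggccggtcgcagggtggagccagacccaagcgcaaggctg
Ptges: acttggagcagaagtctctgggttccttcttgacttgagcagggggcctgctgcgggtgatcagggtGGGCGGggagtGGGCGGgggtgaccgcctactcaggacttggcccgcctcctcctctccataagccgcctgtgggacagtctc

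In the Ptgs2 window the cyclic AMP core begins at base 14 after the annotated start and overlaps the E box, which begins at base 17. Over windows of 300 bases (250 before and 50 after the start), TGACG was found in 20.9% of 32544 promoters and CACGTG in 7.17%, and among the 8 matched members only Ptgs2 held either. GC boxes are common, being present in 35.9% of promoters. Alox5 and Hpgd held 1 each and Ptges held 2, and Ptgs2 held 1 further upstream than the stretch shown. The full palindrome TGACGTCA, present in 1.80% of promoters, was in none of the 8. The motif CAGCTG, an E box bound by myogenic factors and present in 16.4% of promoters, was in the Ptgds and Hpgd windows alone among the 8. These are matches of letters in a window, not measured binding sites.

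Levels are in TPM, a share of all transcripts corrected for gene length, so genes can be set against each other within a library. Sequencing depth is not kept by TPM, and no counting interval can be given. In controls the prostacyclin synthase Ptgis was the most abundant of the 10 (mean 194 TPM), followed by Ptgs1 (59.8), Pla2g4a (54.2), Ptges (32.7), Ptgs2 (24.5) and Hpgd (11.0), and the ranges of neighbours in this order did not overlap. All 3 lipoxygenase genes and Ptgds lay far below, between 0.302 TPM for Alox5 and 2.60 TPM for Ltc4s on average. The ranges of Ltc4s and Alox5ap overlapped, as did those of Ptgds and Alox5. After co-culture Ptgis still came first (211 TPM), Pla2g4a stood second above Ptgs1, and Ptgs2 had moved above Ptges. Alox5 stood above Alox5ap, and above Ptgds by its mean only. The ranges of Alox5 (2.70 to 3.54 TPM) and Ptgds (0.818 to 2.76 TPM) overlapped.

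**Figure D1:**
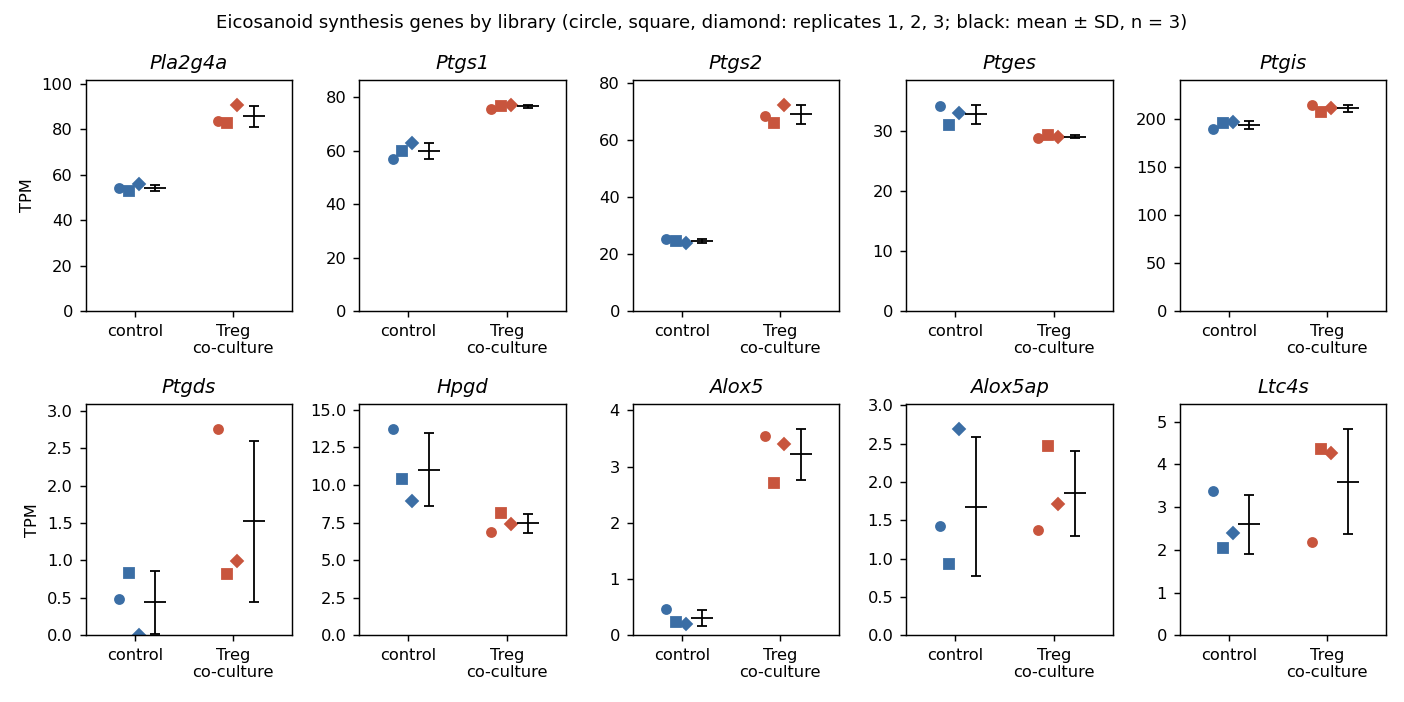
TPM of each gene in the 3 control and 3 Treg co-culture libraries, on a separate linear axis from 0 per gene; symbols are replicates and black marks the mean ± SD. The groups lie apart for Pla2g4a, Ptgs1, Ptgs2, Ptges, Ptgis, Hpgd and Alox5 and overlap for Ptgds, Alox5ap and Ltc4s.

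The arachidonate-releasing phospholipase Pla2g4a (NCBI Gene 18783), which feeds both arms, stood at 54.1, 52.7 and 55.7 TPM in control replicates 1 to 3, against 83.5, 82.8 and 90.9 TPM in the corresponding co-culture replicates. Every co-culture library was above every control. The mean was 1.58-fold higher, and the difference on the log2(TPM + 1) scale was 0.65 (SE 0.05, from the limma fit across all genes).

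Both cyclooxygenases were higher, unequally. The inducible Ptgs2 (NCBI Gene 19225), an early response gene in many cells, read 25.3, 24.5 and 23.9 TPM in controls, against 68.4, 65.8 and 72.3 TPM after co-culture. The groups were far apart, with a mean 2.81-fold higher and a log2 difference of 1.45 (SE 0.05). The constitutive Ptgs1 (NCBI Gene 19224) read 56.9, 60.0 and 62.7 TPM in controls, against 75.8, 76.7 and 77.2 TPM after co-culture. Its groups were apart as well, but the mean was only 1.28-fold higher (log2 difference 0.35, SE 0.04). Ptgs2 and Pla2g4a are next to each other on chromosome 1 in the RefSeq gene table, with no other protein-coding gene between them.

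The terminal synthases differed little or in the other direction. Ptges (NCBI Gene 64292), the inducible prostaglandin E synthase that often acts with Ptgs2, read 34.1, 30.9 and 33.0 TPM in controls, against 28.7, 29.3 and 28.9 TPM after co-culture. All co-culture values lay just below the lowest control, a 1.13-fold lower mean (log2 difference -0.17, SE 0.05). Ptgis (NCBI Gene 19223) read 189, 196 and 196 TPM in controls, against 215, 208 and 211 TPM after co-culture. It was slightly higher in each co-culture library than in any control (1.09-fold, log2 difference 0.12, SE 0.03). Ptgds (NCBI Gene 19215) was near 0 in both groups, at 0.489, 0.834 and 0 TPM in controls, against 2.76, 0.818 and 0.997 TPM after co-culture. Its groups overlapped, its mean over all libraries was below the 1 TPM needed for testing, and the high value was that of Treg co-culture 1.

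Treg co-culture 1 stood apart in transcripts of liver and adult heart. A list of 9 such markers summed to 112 TPM in it and to at most 1.27 TPM in any other library, with albumin (Alb) at 64.9 TPM. What this has to do with its Ptgds value was not tested. Without this library the mean of Ptgds after co-culture was 0.907 TPM, and its log2 difference went from 0.77 to 0.45.

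Hpgd (NCBI Gene 15446), the dehydrogenase that starts prostaglandin breakdown, read 13.7, 10.4 and 8.95 TPM in controls, against 6.86, 8.12 and 7.39 TPM after co-culture. The co-culture values were all below the controls, but the controls themselves were spread widely. The mean was 1.48-fold lower, with a log2 difference of -0.49 (SE 0.14).

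**Figure D2:**
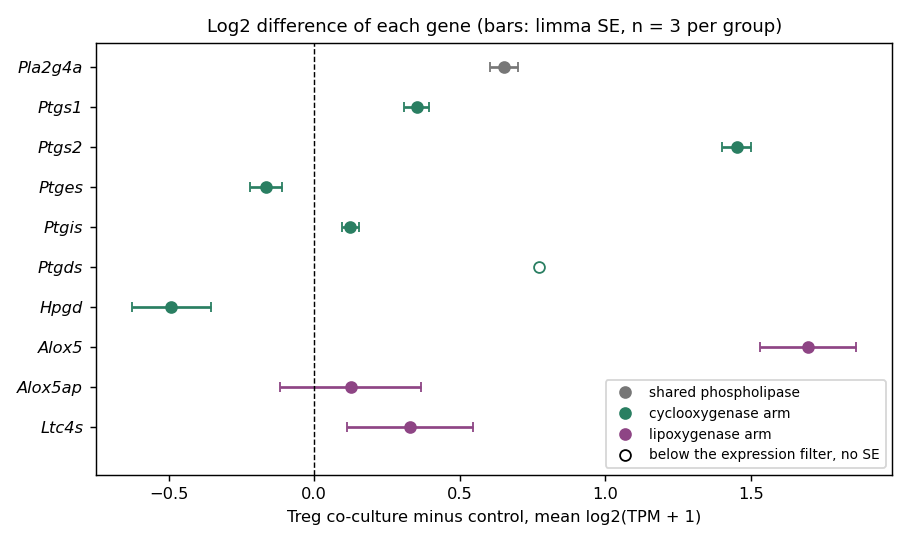
Difference between the group means on the log2(TPM + 1) scale (Treg co-culture minus control) for each gene, with limma standard errors as bars (n = 3 per group); colours give the arm, and the open circle marks Ptgds, which was below the expression filter. Ptgs2 (1.45) and Alox5 (1.70) lie farthest from 0.

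Proportions within a library show how the cyclooxygenase arm was composed. Ptgs2 made up 30.8%, 29.0% and 27.6% of the summed TPM of Ptgs1 and Ptgs2 in the control libraries, against 47.5%, 46.2% and 48.4% in the co-culture libraries. Cyclooxygenase transcripts were thus mostly Ptgs1 in control cells and close to evenly shared after co-culture. The ratio of Ptgs2 to Hpgd, of a prostaglandin-making to a prostaglandin-degrading enzyme, was 2.29 ± 0.415 (SD, n = 3) in controls and 9.29 ± 1.03 after co-culture. The ratio of Ptgis to Ptges was 5.94 ± 0.395 in controls and 7.28 ± 0.207 after co-culture, so prostacyclin synthase was the more abundant of the pair in all 6 libraries. Transcript ratios do not measure the lipids themselves. All of these ratios come from the values that the genes were proposed on and are descriptions.

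**Figure D3:**
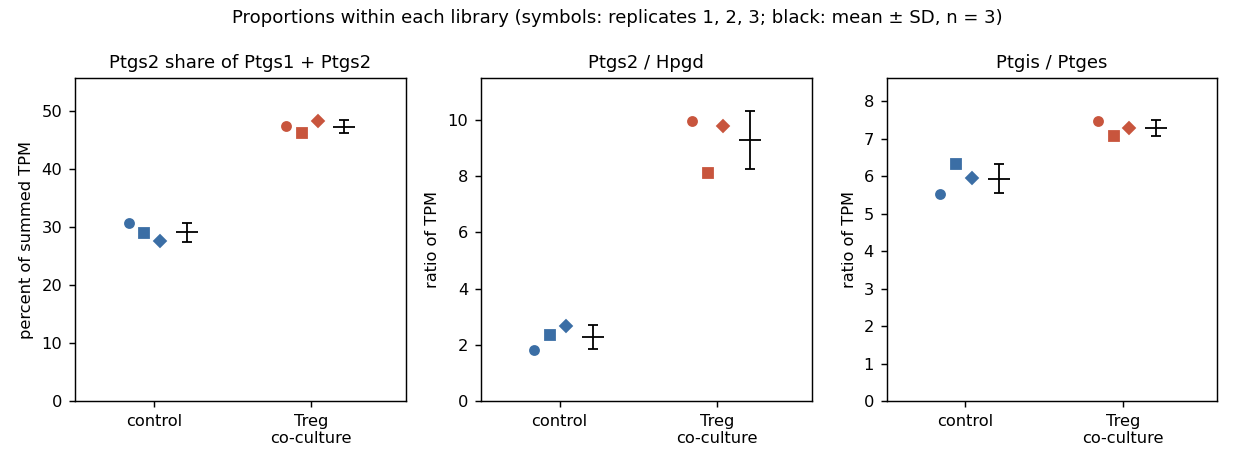
Ptgs2 as a percentage of Ptgs1 + Ptgs2, and the ratios Ptgs2 to Hpgd and Ptgis to Ptges, per library on linear axes from 0; symbols are replicates and black marks the mean ± SD (n = 3). All 3 quantities lie higher in every Treg co-culture library than in every control.

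The lipoxygenase arm was sparse, and 1 of its 3 genes differed between groups beyond the spread. Alox5 (NCBI Gene 11689), the lipoxygenase that begins leukotriene synthesis, read 0.464, 0.238 and 0.203 TPM in controls, against 3.54, 2.70 and 3.41 TPM after co-culture. The groups were far apart, with a log2 difference of 1.70 (SE 0.17), and the low control values make the size depend on the pseudocount: it was 3.09 with 0.1 in place of 1 and 3.45 with 0.01. Even after co-culture Alox5 held only 2.16% ± 0.276 of the summed TPM of Ptgs1, Ptgs2 and Alox5, against 0.359% ± 0.177 in controls.

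The partners of Alox5 did not separate the groups. Alox5ap (NCBI Gene 11690), the membrane protein that presents arachidonate to Alox5, read 1.42, 0.927 and 2.69 TPM in controls, against 1.38, 2.46 and 1.72 TPM after co-culture. The groups overlapped fully (log2 difference 0.12, SE 0.24), and the sign turned without control 2 (-0.09) or without Treg co-culture 2 (-0.02). Ltc4s (NCBI Gene 17001), which makes the first of the cysteinyl leukotrienes, read 3.38, 2.04 and 2.40 TPM in controls, against 2.17, 4.36 and 4.26 TPM after co-culture. Treg co-culture 2 and 3 were above all controls while Treg co-culture 1 was among them (log2 difference 0.33, SE 0.22, and 0.58 without Treg co-culture 1).

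In the limma fit, 9 of the 10 genes were tested and 7 had a Benjamini-Hochberg adjusted p under 0.05, against 37.8% of all 12405 genes tested. Of the 7, 5 were higher after co-culture (19.8% of all genes) and 2 were lower (18.0%). The groups did not overlap for the same 7, as for 49.3% of all genes (25.3% with co-culture above and 24.0% with co-culture below). Nothing is read from these shares, since the genes were proposed on this comparison. Alox5 passed the 1 TPM filter only through its co-culture libraries (mean 3.22 TPM, against 0.302 TPM in controls). It was not tested with the 5 TPM filter. Per the labels, a control and a co-culture library with the same replicate number belong to 1 batch. Within each of the 3 batches Pla2g4a, Ptgs1, Ptgs2, Ptgis and Alox5 were higher and Ptges and Hpgd lower after co-culture, while Ptgds, Alox5ap and Ltc4s changed sign between batches. For the 7 genes whose groups did not overlap, the sign within a batch was fixed by that and adds no support. The within-batch log2 differences ran from 1.39 to 1.56 for Ptgs2 and from 1.58 to 1.87 for Alox5. The call of Ptges was lost when the batch was added as a replicate block (limma adjusted p = 0.0545).

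Among genes tested, those with the profile nearest to Ptgs2 over the 6 libraries were muscle genes. Nearness was the mean absolute difference between log2(TPM + 1) values centred on each gene's mean. It was 0.05 for the troponin Tnnt2, 0.07 for the skeletal actin Acta1 and 0.07 for the myogenic transcription factor Myog, and 13 of 12043 named genes compared lay within 0.1. Nearest to Alox5 were the actin Actc1 (0.11), Ptgs2 itself (0.13) and the troponin Tnnt1 (0.13), and none of the named genes came within 0.1. All these profiles are set mainly by the difference between the groups.

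Markers of other cell types were read in the same libraries. In bulk RNA, fewer cells of a type and less RNA per cell cannot be told apart. Of 14 T cell and Treg markers, 8 were at 0 in all 6 libraries, including Cd3d, Cd3e and Cd3g of the T cell receptor complex and the Treg receptor Il2ra. The list summed to 3.50 to 4.41 TPM in controls, against 4.25 to 4.56 TPM after co-culture, most of it from Ikzf2. Next in level were Lck (means 0.927 and 1.02 TPM) and Ptprc (0.348 and 0.535 TPM), both below the expression filter. The groups overlapped for Lck, and for Ptprc every co-culture library was above every control. Of 9 neutrophil markers 5 were at 0 throughout, with a sum of at most 0.942 TPM in any library, and mast cell markers summed to at most 1.75 TPM in controls, against 1.02 TPM after co-culture. Macrophage markers were present and summed to 103 to 110 TPM in controls, against 74.9 to 88.5 TPM after co-culture. Of 10 tested, 1 was lower and 9 were not called, beside 18.0% of all genes tested lower. Most of that sum was Lyz2, whose mean was 65.9 ± 4.18 TPM without and 44.7 ± 6.26 TPM with Treg. Cd68 read 12.8 ± 2.24 TPM without and 11.0 ± 2.38 TPM with Treg. The receptor Csf1r read 4.58 ± 0.354 TPM without and 5.38 ± 0.865 TPM with Treg. Among the tested macrophage markers Csf1r alone had a positive log2 difference, and the median of the list was -0.245. The part of these cell types in the Alox5 values was not tested.

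Adipose stromal markers were abundant (13 of 13 tested, led by Col1a2, Col1a1 and Dcn), as the labelled cell type requires, and 10 were lower and 1 higher after co-culture. Mesothelial markers summed to 768 to 775 TPM in controls, against 674 to 678 TPM after co-culture, with 4 of 7 lower. Endothelial markers summed to 41.2 to 43.1 TPM and 36.3 to 37.4 TPM. Of 6 tested, 1 was called higher (Kdr), 2 lower (Tek and Cdh5) and 3 were not called. All 9 skeletal muscle markers were called higher, and their sum went from between 1205 and 1244 TPM to between 3214 and 3284 TPM. Over all genes tested 19.8% were called higher and 18.0% lower. That Ptgs2 and Alox5 were higher in the same libraries follows from their own group difference and is not a separate observation. The part of any of these cell types in the eicosanoid values was not tested.

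The other genes of the pathway were not members and were tested in the same fit. Of 78 such genes listed, 44 passed the expression filter, of which 10 rose and 13 fell, beside 19.8% and 18.0% of all genes tested. Their median log2 difference was -0.04, against 0.0015 over all genes tested. For genes that release or re-esterify arachidonate, 3 rose and 4 fell of 14 tested. Acsl4, which activates arachidonate for return to membranes, rose from 54.1 ± 1.04 to 71.5 ± 2.47 TPM (log2 difference 0.39, limma adjusted p = 4.57e-05), and the related Acsl3 rose (0.24). The calcium-independent phospholipase Pnpla8 fell from 54.2 ± 0.814 to 43.9 ± 1.47 TPM (-0.30, limma adjusted p = 0.000422), as did the arachidonate-selective acyltransferase Mboat7 (-0.19) and the monoacylglycerol lipase Mgll (-0.34), the latter losing its call in 3 of 13 alternatives, each with 1 library left out. Lpcat2 (0.35) and the diacylglycerol lipase Daglb (-0.26), named after their values were seen, passed narrowly and lost their call with the replicate block (limma adjusted p = 0.0517 and 0.0769).

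Of 14 other prostanoid synthases, reductases and transporters tested, 5 rose and 2 fell, beside 19.8% and 18.0% of all genes tested. The cytosolic prostaglandin E synthase Ptges3, also a heat shock co-chaperone, rose from 181 ± 5.66 to 200.4 ± 3.98 TPM (0.15, limma adjusted p = 0.00444), opposite to Ptges. The aldose reductases Akr1b3, which can form prostaglandin F, and Akr1b8 both rose by 0.22, and Prxl2b, another prostaglandin F synthase, rose by 0.26, with its call lost in 6 of 13 alternative fits. The prostaglandin-reducing carbonyl reductase Cbr1 fell by 0.28. The prostaglandin importer Slco2a1 (0.12) and the reductase Ptgr1 (-0.17), named after their values were seen, were less stable, with calls lost in 6 and 7 of the alternatives. The thromboxane synthase Tbxas1 and the blood-cell prostaglandin D synthase Hpgds stayed below 1 TPM in every library.

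Of 9 prostanoid receptors 5 were tested. The thromboxane receptor Tbxa2r fell from 22.0 ± 0.528 to 15.0 ± 2.24 TPM (-0.53, limma adjusted p = 0.00148). The prostaglandin E receptor Ptger4 went from 6.31 ± 0.611 to 7.999 ± 0.605 TPM (0.30, limma adjusted p = 0.0390), a call that 7 of 13 alternatives lost, the replicate block among them (limma adjusted p = 0.0592). The prostacyclin receptor Ptgir, at 9.85 ± 0.636 and 11.6 ± 0.769 TPM, and the low Ptger1 and Ptgfr did not pass the threshold.

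Of 20 other lipoxygenase and leukotriene genes listed, 10 were tested, of which 6 fell and 1 rose, with a median of -0.30. Over all genes tested 18.0% fell and 19.8% rose, and a list of this size is given as a count only. The glutathione transferase Mgst1, of the same membrane protein family as Ltc4s, fell from 275 ± 5.06 to 220.1 ± 1.50 TPM (-0.32, limma adjusted p = 6.84e-06). Ggt5 and Dpep1, which trim the glutathione of cysteinyl leukotrienes in turn, fell by 0.75 and 0.27. The epoxide hydrolase Ephx2, counted in this list though it is not an enzyme of leukotriene synthesis, fell by 0.63. Mgst3 (-0.57) and the fatty acid hydroxylase Cyp4f13 (-0.49), named after their values were seen, also fell, the latter losing its call in 6 alternatives. The exporter Abcc1, which carries leukotriene C out of cells, rose from 60.3 ± 2.00 to 86.2 ± 2.09 TPM (0.51, limma adjusted p = 6.44e-06). Lta4h, the hydrolase that forms leukotriene B, stood at 75.6 ± 3.46 and 74.4 ± 0.516 TPM and was not called. Of 9 receptors for leukotrienes and resolving lipids, Cmklr1 alone passed the filter and it was not called (-0.09, limma adjusted p = 0.477).

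**Figure D4:**
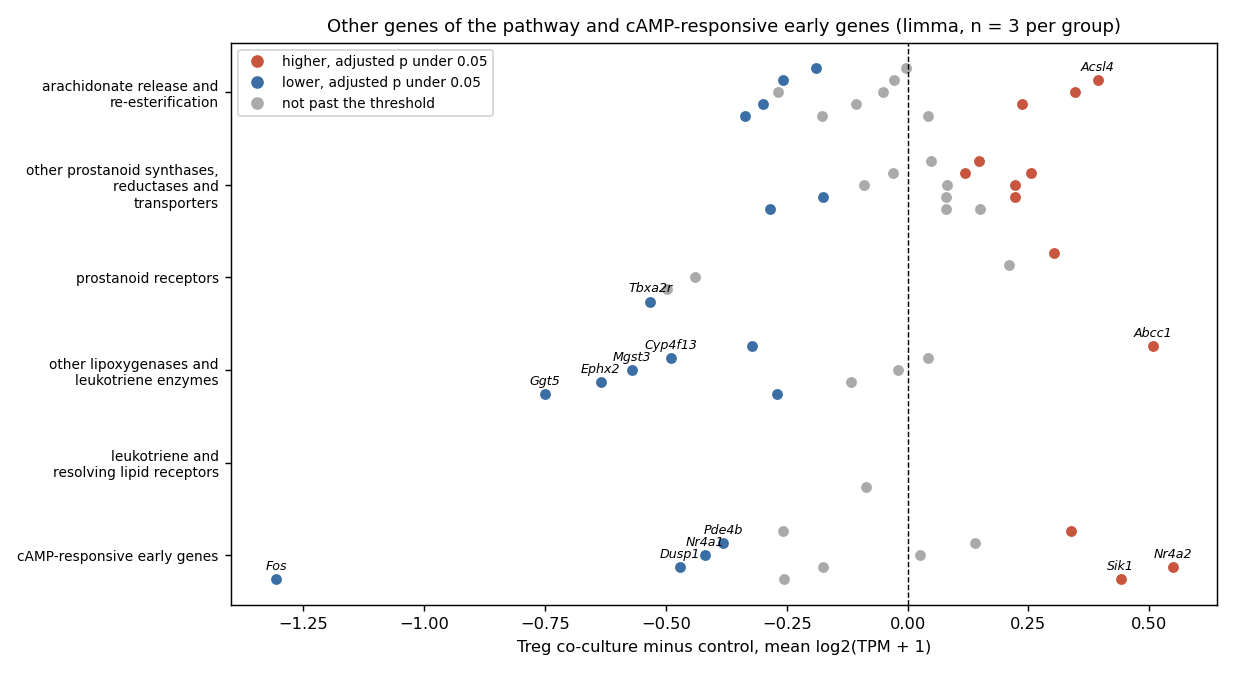
Log2 difference (Treg co-culture minus control, log2(TPM + 1)) of the 44 tested genes in 5 pathway lists and of 12 early genes that respond to cyclic AMP; red and blue mark genes higher and lower at a limma adjusted p under 0.05, grey the others, with the vertical position inside a list arbitrary. In the list of lipoxygenase and leukotriene genes, which also holds the epoxide hydrolase Ephx2, 6 genes are blue, with Ggt5 lowest (-0.75), and 1 is red (Abcc1, 0.51).

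Early genes that respond to cyclic AMP, the messenger raised by several prostanoid receptors, went both ways. Of 12 tested, 3 were higher and 4 lower, beside 19.8% and 18.0% of all genes tested. They are not enzymes of the pathway and were listed apart from it. Fos fell from 77.1 ± 1.70 to 30.6 ± 0.433 TPM (-1.31, limma adjusted p = 1.01e-08), and Dusp1 (-0.47), Nr4a1 (-0.42) and the phosphodiesterase Pde4b (-0.38) fell too. The kinase Sik1 rose (0.44), as did Nr4a3 (0.34) and Nr4a2 (0.55), the last pair named after their values were seen and losing their calls in 5 and 7 alternatives. Ptgs2, itself an early response gene, stood higher where Fos, Dusp1, Nr4a1 and Pde4b stood lower and Sik1, Nr4a3 and Nr4a2 higher. This follows from the group difference of each gene and is not a separate observation.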

How the data were processed

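The authors deposited 1 table of TPM values per gene and library, named by NCBI Gene number; each library sums to 1000000. Aligner, counter, annotation and strand setting: not given in the sources used here. Of 22186 gene numbers, 99.1% matched a symbol in the RefSeq table of GRCm38.p6. Values were taken as log2(TPM + 1), a scale that understates changes of low genes, and the 12405 genes averaging 1 TPM or more were fitted with limma 3.58.1 (R 4.3.3; lmFit, eBayes with trend) with no block and p-values adjusted over all of them by Benjamini-Hochberg (threshold 0.05). The step was tested on simulated data. Python 3.11.15, pandas 2.3.3 and matplotlib 3.10.9 were used. The members and lists were chosen with earlier results of these data known. Named pathway genes are up to 5 called genes per list with the lowest adjusted p; markers named are up to 3 per list with the highest TPM, and others were named after their values were seen. Same-numbered libraries share a batch per the labels; the deviations of such pairs from their group means correlated at 0.0115, -0.0146 and 0.00402. The alternatives tried were no filter or 5 TPM, pseudocounts of 0.1 and 0.01, median-of-ratios scaling, eBayes without trend, a replicate block and each library left out.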

Additional observations from a re-analysis of the deposited data

How the results depend on the processing

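The direction of Pla2g4a, Ptgs1, Ptgs2, Ptges, Ptgis, Hpgd and Alox5 was the same in all 13 alternative fits that gave them a value. Their groups do not overlap, so most of these fits could not turn the sign, and the agreement adds no support. Ptges lost its call with the replicate block and without any 1 library other than control 2, with log2 differences from -0.20 to -0.13 over all alternatives. Ptgis lost its call in eBayes without trend. Without Treg co-culture 1, Hpgd lost its call (-0.44) and Ltc4s gained one (0.58), so that 6 members were called higher by limma's adjusted p and neither Ptges nor Hpgd was called. Of the 23 pathway genes called, 15 kept their call in every alternative that tested them, as did 5 of the 7 early genes that respond to cyclic AMP. Called genes for arachidonate release numbered 7, and 4 to 6 with 1 library left out. Those for other prostanoid synthases numbered 7, with 4 under no filter and 4 to 5 with 1 library left out. Prostanoid receptors called numbered 2, with 4 in eBayes without trend, 1 with the replicate block and 1 to 2 with 1 library left out. The replicate block also ended the calls of Lpcat2, Daglb, Ptger4 and Cyp4f13, and of no other pathway gene. Median-of-ratios scaling moved the median of all genes from 0.0015 to -0.0023. TPM keep no depth, so the precision of genes near 0 is unknown.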
